A study of Mus musculus with 22 samples.

Results

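The genes described here encode the proteins of the cytosolic ribosome. They were chosen by name: protein-coding genes of the deposited table whose symbol is Rpl or Rps followed by a number, with an optional a, l or x, together with the stalk genes Rplp0, Rplp1 and Rplp2 and the gene Rpsa. The rule found 76 of the 13594 genes listed, 45 of the large subunit and 31 of the small subunit. No measured value entered the rule, although it was chosen with earlier results of these data known. Expression was measured by RNA sequencing in haematopoietic stem cells (HSCs), sorted as KSL cells without CD48 and with CD150. The mice were Cd53 knockouts (KO) and wild-type (WT) littermates, which received granulocyte colony-stimulating factor (G-CSF) over 7 days, or saline. The 22 libraries form 6 groups, namely 4 KO and 4 WT libraries of spleen HSCs after G-CSF, 4 KO and 3 WT libraries of bone marrow (BM) HSCs after G-CSF, and 3 KO and 4 WT libraries of BM HSCs after saline. Spleen HSCs of saline-treated mice were not analysed here. How Cd53 was disrupted, and whether a library is 1 mouse or a pool, is not given in the sources used here, so p-values measure the spread between these libraries, which may be technical in part.

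Each ribosome joins a small subunit, which reads the messenger RNA, to a large subunit, which forms the peptide bond. Cells make the proteins of both subunits in matched amounts. Their messenger RNAs typically begin with a C followed by a run of pyrimidines, the terminal oligopyrimidine (TOP) element, through which mTORC1 and the RNA-binding protein Larp1 adjust their translation together. Quiescent HSCs are known for low protein synthesis, and loss of 1 copy of several of these genes causes Diamond-Blackfan anaemia in humans.

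Starts of 6 members are shown because their values carry the comparisons below: Rpl35, Rps9 and Rps15 had the smallest p of all members for KO against WT in spleen, Rpl28 for the interaction of genotype with tissue, and Rpl5 and Rps13 were the members that passed a test. Each line runs 5′ to 3′ on the gene's strand, from 25 bases before the RefSeq start to 25 bases after it (build GRCm38.p6). Capitals mark the longest run of C and T in that window.
Rpl35 (chr2:39005107-39005156, minus strand): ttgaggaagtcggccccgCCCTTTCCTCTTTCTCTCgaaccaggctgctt
Rps9 (chr7:3704016-3704065, plus strand): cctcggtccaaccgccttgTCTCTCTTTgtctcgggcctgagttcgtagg
Rps15 (chr10:80292406-80292455, plus strand): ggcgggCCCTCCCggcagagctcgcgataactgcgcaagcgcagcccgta
Rpl28 (chr7:4792940-4792989, plus strand): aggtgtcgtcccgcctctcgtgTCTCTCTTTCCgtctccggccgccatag
Rpl5 (chr5:107900503-107900552, plus strand): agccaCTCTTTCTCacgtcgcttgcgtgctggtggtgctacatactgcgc
Rps13 (chr7:116334166-116334215, minus strand): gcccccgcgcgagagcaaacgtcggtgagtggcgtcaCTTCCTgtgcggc

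The pyrimidine run was 18 bases long in Rpl35, 11 in Rpl28, 9 in Rps9 and Rpl5, 7 in Rps15 and 6 in Rps13. It spanned the RefSeq start in Rpl35, Rps9 and Rpl28, lay before it in Rps15 and Rpl5, and lay after it in Rps13. In the GENCODE annotation the genes Rpl35, Rps9, Rpl28 and Rpl5 begin ahead of the printed window. For these genes the placement therefore depends on which annotated start is taken. RefSeq starts were given for 57 of the 76 members (first-listed start of each gene). The letters CTTTC stood on the transcribed strand between 20 bases before and 50 bases after the start in 28 of these 57 members (49.1%), against 8.85% of 27025 genes, while on the other strand they stood in 5 members (8.77%), against 8.66% of the genes. In the whole window of 300 bases, on either strand, CCGGAAG, a core of ETS-factor sites, was found in 23 members (40.4%), against 9.12% of all genes. AAGATGG, a core of YY1 sites, was found in 8 members (14%), against 6.48%, and the E-box CACGTG in 5 members (8.77%), against 7.24%. These matches describe letters in a window and do not show binding.

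Each library held between 22578088 and 31268856 reads over all listed genes, and the members took 1.80 to 2.82% of them. Cd53 lay between 6.18 and 6.40 log2 CPM (reads scaled to a common library size) in KO spleen and between 9.51 and 9.77 in WT spleen, between 6.06 and 6.59 in KO G-CSF BM and 9.57 and 9.83 in WT G-CSF BM, and between 2.02 and 3.61 in KO saline BM and 5.75 and 6.18 in WT saline BM. The 10 HSC marker genes, all listed, summed to between 3509 and 5371 CPM. Granulocyte markers summed to 3.56 to 29.7 CPM in all libraries but one WT saline BM library, with 186 CPM, and mast cell and basophil markers reached at most 10.1 CPM. Over all libraries, the 2 B cell markers listed of 6 summed to 101 to 154 CPM, and T and NK cell markers to 85.0 to 219 CPM. Endothelial markers summed to 91.9 to 253 CPM and megakaryocyte markers to 40.1 to 169 CPM. Macrophage markers reached 244 CPM in WT spleen, and erythroid markers 123 CPM in KO spleen. Whether these reads came from other cells was not tested.

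The members differed widely in level. Rpl4, a large subunit protein that lines the exit tunnel, was the highest at a mean of 11.91 log2 CPM over the 22 libraries, and Rps3 (11.02), a small subunit protein near the messenger RNA entry, Rps9 (10.73) and Rpl32 (10.32) were also among the 5 highest. The 5 highest took 46.0% of all member reads and the 10 highest took 70.4%. Rpl24 (0.54), Rps29 (0.61), Rps13 (0.81) and Rps6 (1.08) were among the 5 lowest, each with 14 to 128 reads per library. Rps6 encodes the S6 kinase target. Per kilobase of transcript, members spanned 1.10 to 11.29 log2 CPM per kilobase, with a median of 6.83 for the large subunit and 6.09 for the small subunit.

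This spread goes with how far a member's sequence is its own. Ribosomal protein genes have many processed copies in the genome, and a read that matches several genes may be lost or split in counting. The share of a transcript's 50-base words found in no other annotated gene ran from 1.35% in Rps27 to 100%, with 97.0% in Rps3. The 27 members with at least 50% of such words had a median level of 7.18 log2 CPM, and the other 49 members had a median of 5.02. The 7 members with at least 80% had a median of 10.23, and the 18 under 20% had a median of 4.22. Across the 76 genes, which share libraries and are not independent, Spearman's rho of level with this share was 0.52. Exceptions ran both ways, since Rpl3 (14.4%) lay at 8.51 log2 CPM and Rps29 (64.2%) at 0.61. Levels of different members are therefore not comparable as measured, whereas the same gene was compared between libraries below. A total of 31 named copies of members were listed as genes of their own, and their reads came to 0.60% of the member reads.

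**Figure D1:**
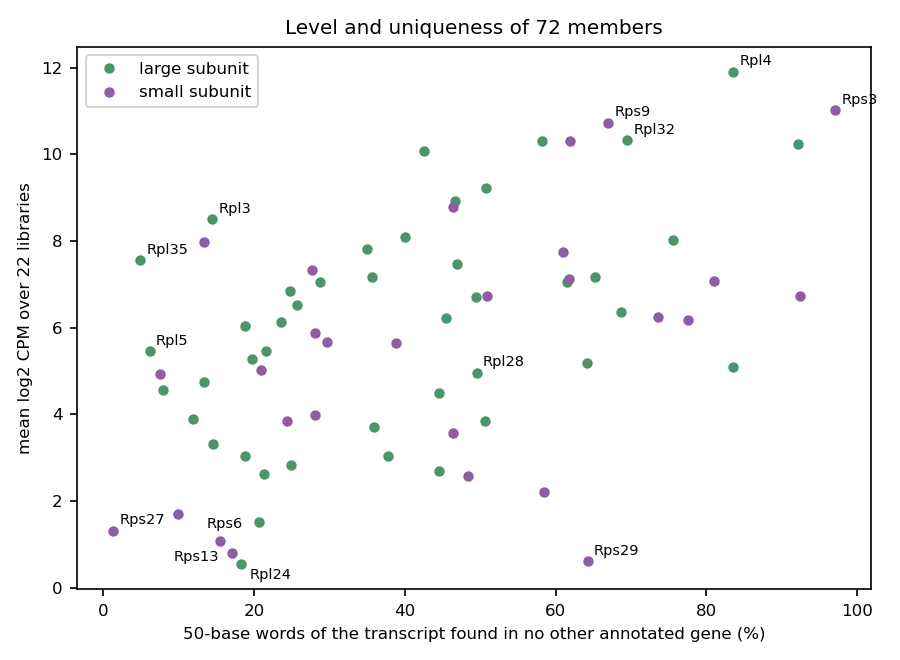
Mean level of each member over 22 libraries (y axis, log2 CPM) against the share of its 50-base words found in no other annotated gene (x axis, %). Each point is 1 of 72 genes, coloured by subunit, with 4 members not shown. Rpl4 and Rps3 lie at the upper right, and Rps27, Rps13, Rps6 and Rpl24 at the lower left.

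Most members moved together from library to library. The correlation of a member with the mean of the other 75 over the 22 libraries, each gene centred on its own mean, had a median of 0.71 and exceeded 0.8 in 30 members. These values share library, depth and scaling and are given as a description. Among the 40 members above 6 log2 CPM the median correlation was 0.85, and among the 36 at or below it 0.47. Rpl37a (0.95), Rpl35a (0.94) and Rpl37 (0.93), large subunit proteins, followed the others most closely. Rpl5 (-0.39), which binds 5S ribosomal RNA and MDM2, and Rpl19 (-0.031) were the members with a negative value. The members of largest standard deviation over the 22 libraries were Rps29 (0.65), Rps27 (0.59), Rps2 (0.57), Rps13 (0.51) and Rpl24 (0.46), against a median of 0.22 for all members.

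**Figure D2:**
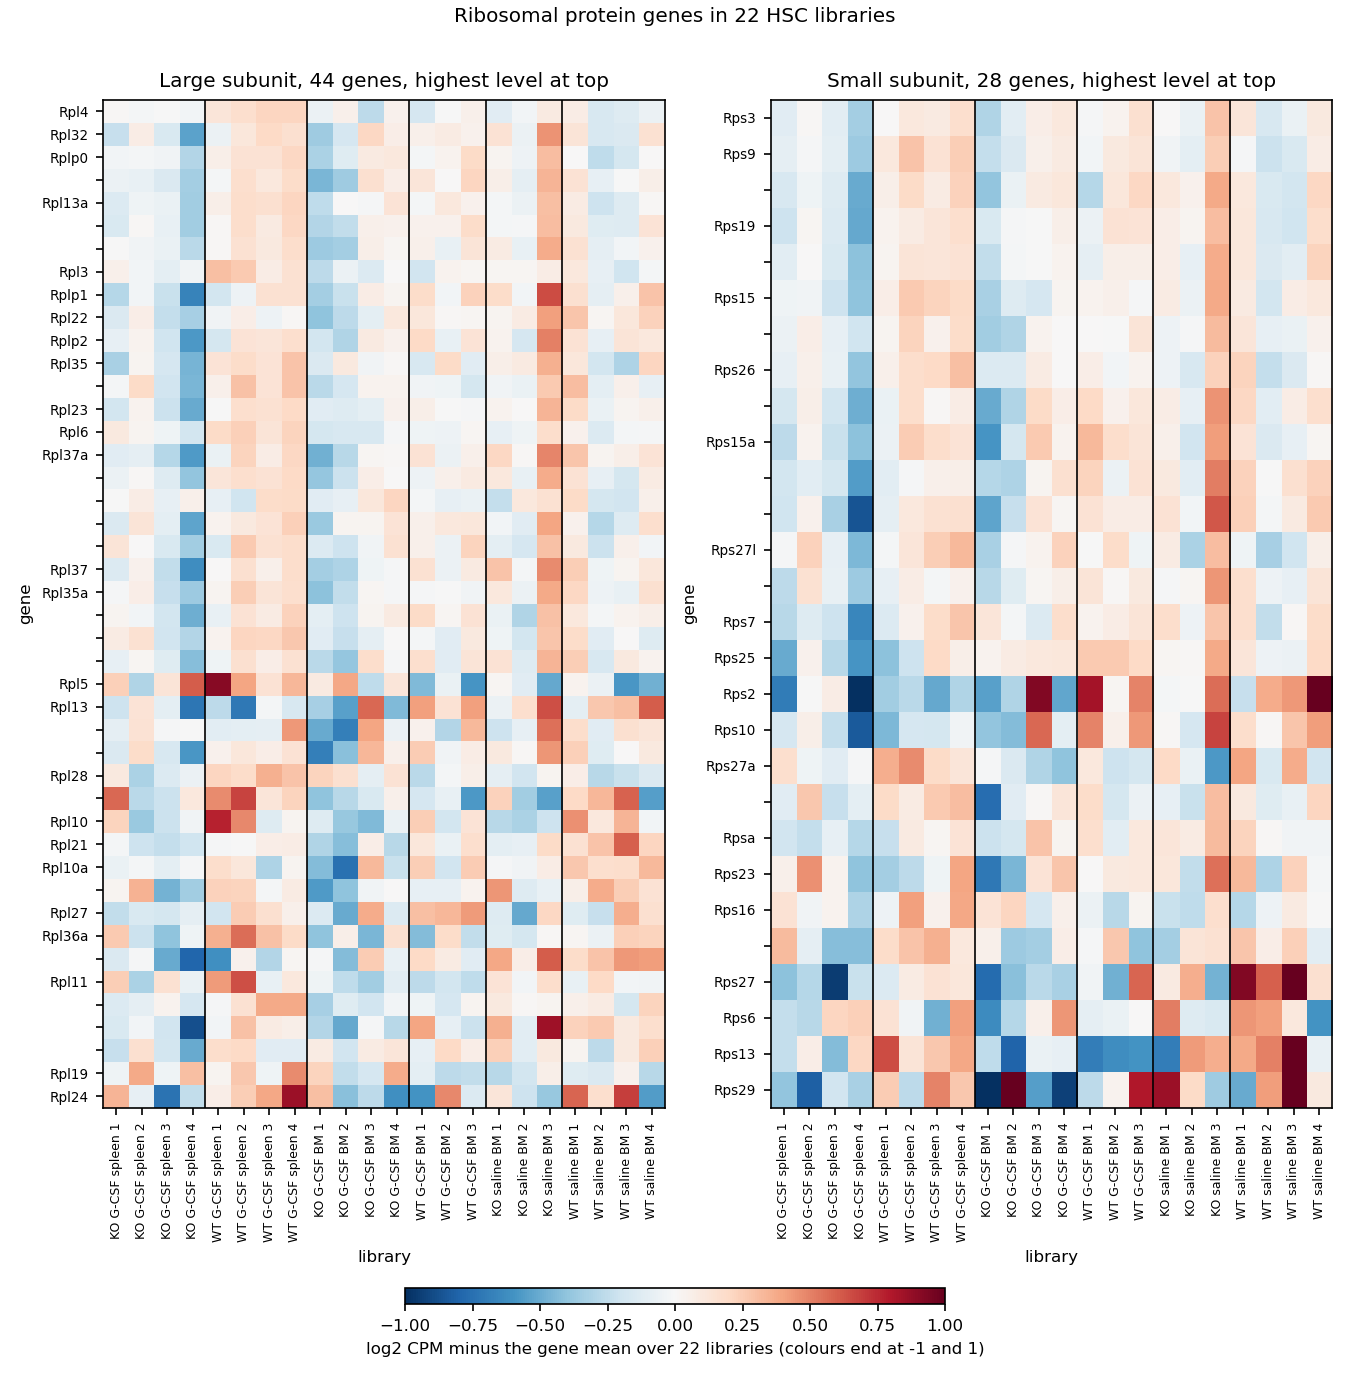
Level of each member in each library as log2 CPM minus the gene's mean over 22 libraries (colour, ending at -1 and 1). Columns are libraries by group and rows are genes, with 44 large subunit genes in one panel and 28 small subunit genes in the other, 4 members not shown and only some rows labelled. Most of the column of KO G-CSF spleen replicate 4 is blue and most of that of KO saline BM replicate 3 is red, while low members near the bottom vary from gene to gene.

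The first comparison asks whether loss of Cd53 changed these genes in HSCs found in spleen after G-CSF. Nearly all members lay lower in KO, by a median of 0.27 on the log2 scale, but none passed the test. The share of reads in members was 2.12, 2.32, 2.09 and 1.80% in the 4 KO spleen libraries, against 2.30, 2.51, 2.39 and 2.53% in the 4 WT spleen libraries. The mean over members, each centred on its mean over all libraries, was -0.07, -0.01, -0.16 and -0.33 in KO spleen, against 0.03, 0.15, 0.10 and 0.18 in WT spleen. In the share of reads KO replicate 2 lay just above WT replicate 1, whereas in the centred mean the 4 KO spleen libraries were all below the 4 WT spleen libraries, and KO replicate 4 was the lowest of all 22 libraries. In these bulk libraries, fewer cells of a kind and less of these messenger RNAs per cell cannot be told apart. All 5 macrophage markers were listed and summed to 193 to 218 CPM in KO spleen and 214 to 244 CPM in WT spleen, and mitochondrially encoded genes took 0.549 to 0.627% of reads in KO spleen and 0.584 to 0.713% in WT spleen. Their part in the result was not tested.

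Member by member, 73 of 76 log2 fold changes (KO over WT) were negative, with a median of -0.27 (-0.27 in the large subunit and -0.27 in the small subunit), beside a median of -0.0011 over the 13586 genes tested. With limma and Benjamini-Hochberg adjustment over all genes tested, 0 of 76 members passed an adjusted p of 0.05, beside 2 genes overall (0.0147%). At an unadjusted p under 0.05, 35 members were lower and 0 higher, beside 5.62% of all genes lower and 6.15% higher. All 4 KO libraries lay below all 4 WT libraries in 22 members, 15 of the large and 7 of the small subunit, and above them in none (0), beside 4.87% and 3.5% of all genes. The median was -0.20 without KO replicate 4 and -0.12 when smooth trends on transcript length and GC content were taken out of each library, and 9 members passed as lower when libraries were weighted by their scatter, a setting in which 0.751% of all genes passed as lower and 1.52% as higher.

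The 3 members of smallest p were Rps9, Rps15 and Rpl35. Rps9 (ENSMUSG00000006333, chromosome 7, 3703993 to 3706897), a small subunit protein that binds 18S ribosomal RNA early in assembly, had 10.65, 10.72, 10.64 and 10.37 log2 CPM in KO spleen, against 10.84, 11.02, 10.88 and 10.98 in WT spleen. The groups did not overlap, and the log2 fold change was -0.34 ± 0.09 (SE; limma adjusted p = 0.209, which this gene shares with the next named pair). Rps15 (ENSMUSG00000063457, chromosome 10, 80292453 to 80294114), a protein of the small subunit head, had 7.72, 7.72, 7.55 and 7.36 log2 CPM in KO spleen, against 7.83, 8.02, 7.98 and 7.95 in WT spleen. Its groups did not overlap either (log2 fold change -0.36 ± 0.10). Rpl35 (ENSMUSG00000062997, chromosome 2, 39001580 to 39005624), a protein at the tunnel exit of the large subunit, had 7.23, 7.59, 7.39 and 7.09 log2 CPM in KO spleen, against 7.69, 7.74, 7.69 and 7.84 in WT spleen, again without overlap (log2 fold change -0.41 ± 0.12). Only 4.91% of the words of Rpl35 are its own, so reads of its copies may be counted in it.

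Among the 3 members with a positive fold change were Rps23 (0.10 ± 0.25), a protein of the decoding centre, and Rpl13 (0.06 ± 0.22), each with an adjusted p above 0.92. Rps23 turned negative without KO replicate 2, and Rpl13 without KO replicate 2 or WT replicate 2. Of 11 members linked to Diamond-Blackfan anaemia or to MDM2 binding, 10 had negative values, among them Rps7 (-0.41 ± 0.13), Rpl23 (-0.34 ± 0.10), Rps19 (-0.31 ± 0.10), Rps26 (-0.31 ± 0.11), Rpl11 (-0.27 ± 0.17) and Rpl5 (-0.28 ± 0.20), and none of the 11 passed the test. The stalk proteins, which recruit the GTPases of elongation, had values of -0.23 ± 0.10 (Rplp0), -0.32 ± 0.14 (Rplp1) and -0.27 ± 0.14 (Rplp2).

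The authors' deposited table lists a comparison of the same groups, with 9 members lower and 0 higher at an adjusted p under 0.05, beside 0.824% of all listed genes lower and 1.4% higher. In the authors' deposited table these included Rpl35 (-0.45), Rps9 (-0.36), Rpl23 (-0.38), Rps15 (-0.38), Rpl13a (-0.31), Rpl37a (-0.41) and Rps19 (-0.33), as log2 fold changes. Weighting the libraries in limma called the same 9 members. Both analyses use the same 8 spleen libraries, so neither is a replication of the other.

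**Figure D3:**
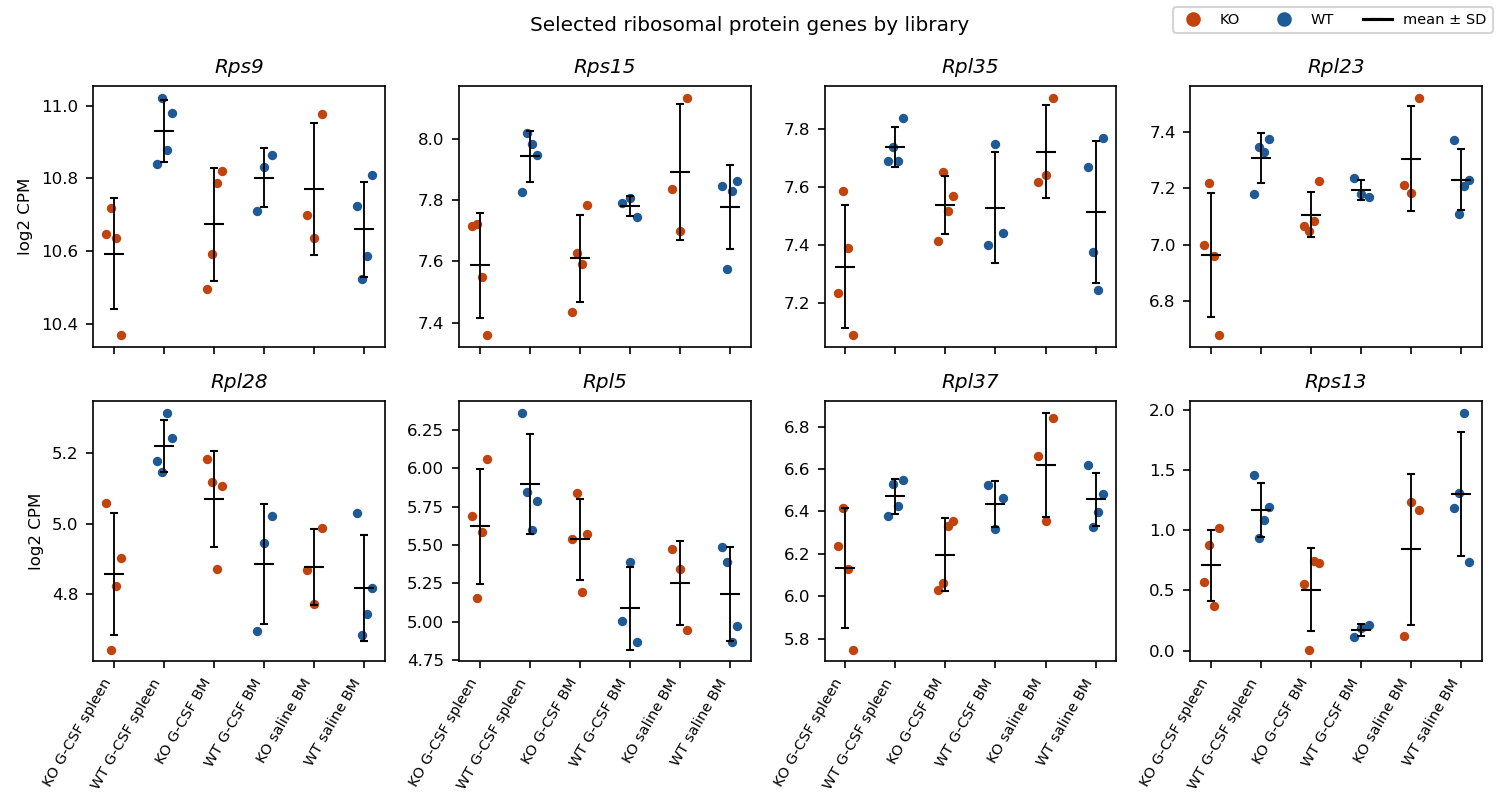
Level of 8 members (y axes, log2 CPM, not starting at 0) in each library (points) by group (x axis), KO and WT in different colours, with the mean and SD of each group. In Rps9, Rps15, Rpl35 and Rpl28 the 4 KO spleen libraries lie below the 4 WT spleen libraries. Rps13 in WT BM after G-CSF lies between 0.12 and 0.21 log2 CPM.

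In BM after G-CSF, most members also had a negative fold change, and none passed the test. The members took 1.84, 1.98, 2.31 and 2.40% of reads in KO libraries, against 2.27, 2.29 and 2.41% in WT libraries, so the ranges overlapped and KO replicates 1 and 2 were low. The median log2 fold change was -0.13, with 65 of 76 members negative. By limma 0 of 76 members passed (0.147% of all genes did). There were 3 lower and 1 higher at an unadjusted p under 0.05, beside 5.59% and 7.21% of all genes. KO lay wholly below WT in 1 member and above it in 0, beside 3.06% and 4.39% of all genes. Rpl13, a large subunit protein, passed as lower without KO replicate 3 (log2 fold change -0.76, limma adjusted p = 0.0490). The smallest p of a lower member belonged to Rpl27 (-0.45 ± 0.20, limma adjusted p = 0.341) and of a higher member to Rpl5 (0.45 ± 0.21, adjusted p = 0.382). Rpl5 had 5.54, 5.84, 5.20 and 5.57 log2 CPM in KO BM and 5.01, 5.39 and 4.87 in WT BM, and these ranges overlapped. The 3 megakaryocyte markers listed of 4 summed to 70.6 to 130 CPM in KO BM and 142 to 169 CPM in WT BM, and their part in these values was not tested.

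In BM after saline, 53 of 76 members had a positive fold change, with a median of 0.063, and 0 passed the test (0.00736% of all genes did). At an unadjusted p under 0.05, 0 were higher and 3 lower, beside 1.74% and 2.02% of all genes. KO lay wholly above WT in 0 members and below it in 2, beside 2.42% and 2.54%. The direction of the median rested on 1 library: the members took 2.36, 2.25 and 2.82% of reads in KO libraries, against 2.53, 2.16, 2.25 and 2.47% in WT libraries, and without KO replicate 3 the median was -0.036. The higher members of smallest p were Rplp0 (0.20 ± 0.11), Rpl35 (0.21 ± 0.13) and Rpl32 (0.19 ± 0.14). The lower ones were Rpl10 (-0.48 ± 0.19), which shapes the peptidyl transferase centre, Rps27 (-0.86 ± 0.34) and Rpl21 (-0.31 ± 0.14). Rps27 had 1.4, 1.68 and 0.84 log2 CPM in KO and 2.24, 1.92, 3.03 and 1.48 in WT, which overlap, and its paralog Rps27l, higher in level and mostly unique in sequence (77.6%), had 0.16 ± 0.16 in the same comparison.

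**Figure D4:**
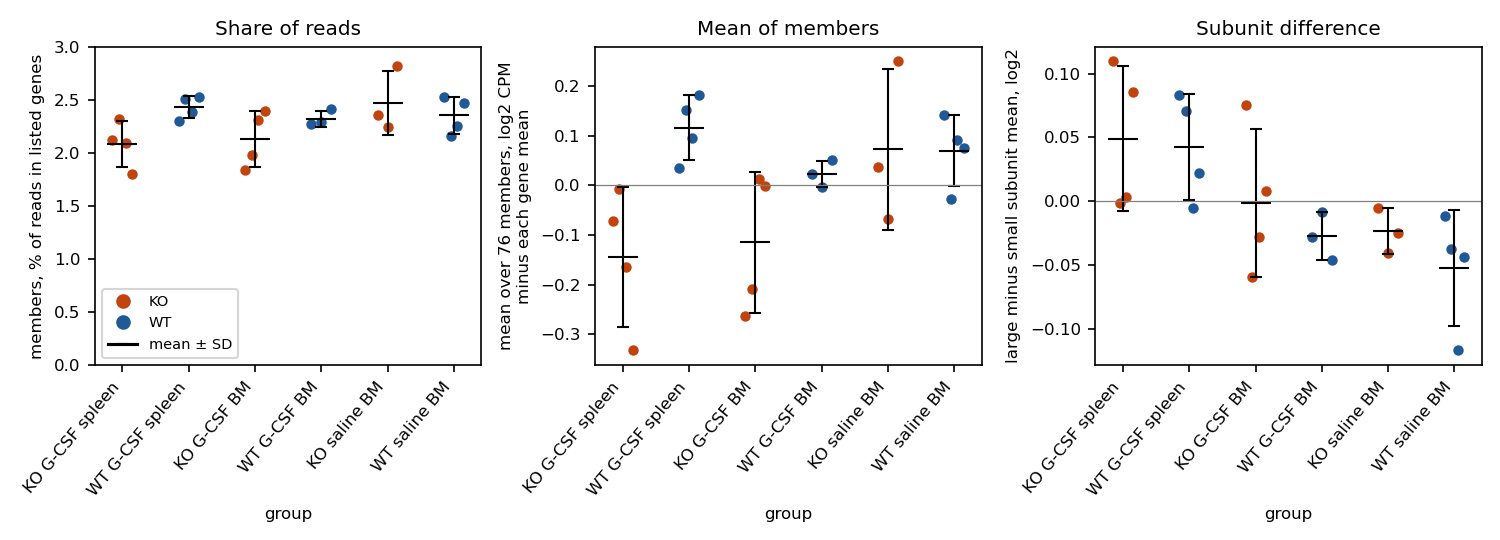
Share of reads in members (left, %), mean over 76 members after centring each gene on its mean (middle, log2 CPM), and large minus small subunit mean (right, log2), by group (x axis). Points are libraries, with mean and SD per group. The 4 KO spleen libraries lie below the 4 WT spleen libraries in the middle panel, and the right panel stays between -0.12 and 0.11.

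The next comparisons concern 7 days of G-CSF against saline in BM. G-CSF changed many genes in these cells, but few members. In WT BM, 764 genes rose and 764 fell (556 rose and 1047 fell when reads were scaled to library totals), and 1 of 76 members passed the test, beside 11.2% of all genes. At an unadjusted p under 0.05, 2 members were lower and 0 higher, beside 13.2% and 11% of all genes. The members' median was 0.010, with 43 positive, and -0.065 when reads were scaled to totals. The median of all genes tested moved with it, from -0.014 to -0.089. The member that passed was Rps13 (ENSMUSG00000090862, chromosome 7, 116331505 to 116334195, minus strand), a small subunit protein of the platform. It had 0.12, 0.18 and 0.21 log2 CPM after G-CSF, against 1.18, 1.31, 1.97 and 0.73 after saline, without overlap. It fell, with a log2 fold change of -1.13 ± 0.35 (limma adjusted p = 0.0398), but at 29 to 34 reads per library after G-CSF and 51 to 128 after saline, with 17% of its words its own. Of 7 refits that each dropped 1 library, only the one without WT saline replicate 4 called it, and its adjusted p ran between 0.0235 and 0.132. Summed HSC markers were 3830 to 4396 CPM after G-CSF and 4733 to 5281 CPM after saline, and macrophage markers 117 to 132 CPM after G-CSF and 38 to 63.8 CPM after saline. T and NK cell markers summed to 156 to 168 CPM after G-CSF and 85.0 to 116 CPM after saline, endothelial markers to 160 to 202 CPM after G-CSF and 91.9 to 141 CPM after saline, and the 4 erythroid markers listed of 8 to 66.5 to 114 CPM after G-CSF and 24.8 to 51.8 CPM after saline. Megakaryocyte markers summed to 142.4 to 168.6 CPM after G-CSF and 99.2 to 142.2 CPM after saline. None of these ranges overlapped, and their part was not tested. The members of smallest p among those with higher values were Rplp0 (0.17 ± 0.11), Rpl27 (0.31 ± 0.20) and Rps15a (0.23 ± 0.16).

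In KO BM, the members' median was -0.19 for G-CSF over saline, and 68 of 76 were negative. The members took 1.84, 1.98, 2.31 and 2.40% of reads after G-CSF, against 2.36, 2.25 and 2.82% after saline. Summed HSC markers were 3699 to 4537 CPM after G-CSF and 4667 to 5371 CPM after saline, and macrophage markers 103 to 141 CPM after G-CSF and 49.7 to 67.5 CPM after saline. The 3 T and NK cell markers listed of 6 summed to 149 to 199 CPM after G-CSF and 96.5 to 114 CPM after saline, and the 2 endothelial markers listed of 3 to 176 to 214 CPM after G-CSF and 109 to 162 CPM after saline. Erythroid markers summed to 54.5 to 78.0 CPM after G-CSF and 34.8 to 49.3 CPM after saline. Granulocyte markers summed to 10.1 to 24.4 CPM after G-CSF and 6.05 to 9.95 CPM after saline. None of these ranges overlapped, and their part in the result was not tested. By limma 0 passed, beside 9.87% of all genes, 4.3% as lower (757 rose and 584 fell, or 588 and 799 when reads were scaled to totals), and 11 were lower and 0 higher at an unadjusted p under 0.05, beside 11.9% and 12% of all genes. Rpl37 had the smallest p, with 6.03, 6.06, 6.33 and 6.36 log2 CPM after G-CSF, against 6.66, 6.36 and 6.84 after saline. Its log2 fold change was -0.42 ± 0.14 (limma adjusted p = 0.0509). Rpl37a (-0.42 ± 0.14, adjusted p = 0.0534) and Rpl22 (-0.34 ± 0.11, adjusted p = 0.0643), an RNA-binding large subunit protein, followed. The positive values of smallest p were Rpl28 (0.19 ± 0.13), Rpl5 (0.28 ± 0.21) and Rps16 (0.16 ± 0.21). Rpl37, Rpl37a and Rpl22 passed as lower when reads were scaled to totals or when length and GC trends were removed, and between 0 and 4 members passed when 1 library was left out, while the median was -0.092 without KO saline replicate 3.

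Whether G-CSF acted differently on members in KO and WT was tested as an interaction. The median difference of log2 fold changes was -0.20, with 61 of 76 negative, and no member passed the test, as no gene did (0%). At an unadjusted p under 0.05, 2 members were negative and 0 positive, beside 2.5% and 4.65% of all genes. These were Rplp0 (-0.33 ± 0.15, limma adjusted p = 0.682) and Rpl37 (-0.40 ± 0.19, adjusted p = 0.699). Without KO saline replicate 3 the median was -0.096.

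The last comparisons set spleen HSCs against BM HSCs, all after G-CSF. Whether spleen and BM libraries came from the same mice is not given in the sources used here. The main fit treated them as independent. In WT, the median was 0.070 with 53 of 76 positive, and -0.063 when length and GC trends were removed. By limma 1 member passed the test as higher and 0 as lower, beside 6.92% and 6.82% of all genes (13.7% in either direction). It was Rpl5 (ENSMUSG00000058558, chromosome 5, 107900502 to 107909005), which had 6.36, 5.85, 5.60 and 5.79 log2 CPM in WT spleen, against 5.01, 5.39 and 4.87 in WT BM. The groups did not overlap and Rpl5 rose by 0.81 ± 0.21 on the log2 scale (limma adjusted p = 0.0159). The call was kept in 4 of 7 refits and lost without WT spleen replicate 1 or WT BM replicate 1 or 3 (adjusted p up to 0.0768), and 6.16% of the words of Rpl5 are its own. At an unadjusted p under 0.05, 11 members were higher and 4 lower, beside 15.2% and 14% of all genes. The lower ones of smallest p were Rpl13 (-0.61 ± 0.24), Rps2 (-0.81 ± 0.33) and Rps10 (-0.53 ± 0.23). WT spleen and WT BM did not overlap in 16 members that were higher and 5 that were lower, beside 14.5% and 13.8% of all genes. Macrophage markers summed to 214 to 244 CPM in WT spleen and 117 to 132 CPM in WT BM, T and NK cell markers to 195 to 219 CPM in WT spleen and 156 to 168 CPM in WT BM, and megakaryocyte markers to 40.1 to 68.2 CPM in WT spleen and 142 to 169 CPM in WT BM, without overlap, and their part was not tested.

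In KO, the median was -0.034 with 27 of 76 positive, and by limma 0 members passed the test (1.27% of all genes did). The direction of the median rested on 1 library: it was 0.035 without KO spleen replicate 4. It was -0.092 without KO BM replicate 1 and -0.0071 when reads were scaled to totals. The median of all genes tested was 0.0052, and 0.032 with reads scaled to totals. An unadjusted p under 0.05 was reached by 2 lower and 0 higher members, beside 4.86% and 6.52% of all genes. These were Rps25 (-0.42 ± 0.14, limma adjusted p = 0.171) and Rps7 (-0.35 ± 0.13, adjusted p = 0.230), and Rpl5, the member called in WT, had 0.09 ± 0.20. The positive values of smallest p were Rpl6 (0.10 ± 0.08), Rpl10a (0.22 ± 0.17) and Rps27a (0.22 ± 0.17). Spleen and BM overlapped in all 76 members, whereas 3.38% of all genes were higher and 2.28% lower without overlap. Macrophage markers summed to 193 to 218 CPM in KO spleen and 103 to 141 CPM in KO BM. Megakaryocyte markers summed to 53.6 to 65.9 CPM in KO spleen and 70.6 to 130 CPM in KO BM. Neither pair of ranges overlapped, and their part was not tested.

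The interaction of genotype with tissue asks whether the difference of KO from WT is the same in spleen and in BM. The median difference was -0.12, with 62 of 76 negative. It was 0.020 when length and GC trends were removed, -0.065 when reads were scaled to totals and -0.060 without KO spleen replicate 4. The median of all genes tested was -0.012, and 0.047 with reads scaled to totals. By limma 0 members and no gene passed (0%). Of the members, 3 negative and 0 positive had an unadjusted p under 0.05, beside 6.26% and 6.69% of all genes. Rpl28, a large subunit protein, had the smallest p. It had 5.06, 4.64, 4.82 and 4.90 log2 CPM in KO spleen, 5.18, 5.15, 5.32 and 5.24 in WT spleen, 5.18, 5.12, 4.87 and 5.11 in KO BM, and 4.69, 4.95 and 5.02 in WT BM. KO spleen was below WT spleen in all libraries, whereas KO and WT BM overlapped, and the interaction was -0.55 ± 0.17 (limma adjusted p = 0.281). Rpl5 (-0.73 ± 0.29, adjusted p = 0.317) and Rpl35 (-0.42 ± 0.17, adjusted p = 0.322) followed. The KO over WT differences of members in spleen (median -0.27) are thus not shown to differ from those in G-CSF BM (median -0.13).

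The authors' deposited table also holds comparisons of spleen after G-CSF with BM after saline, which change tissue and treatment at once. In the authors' deposited table, 10 members were lower and 0 higher in KO spleen than in KO saline BM, beside 3.74% of all genes lower and 5.02% higher. For WT spleen against WT saline BM the authors' deposited table has 14 members higher and 5 lower, beside 17.5% and 17.1%. They share libraries with the comparisons above and with each other.

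**Figure D5:**
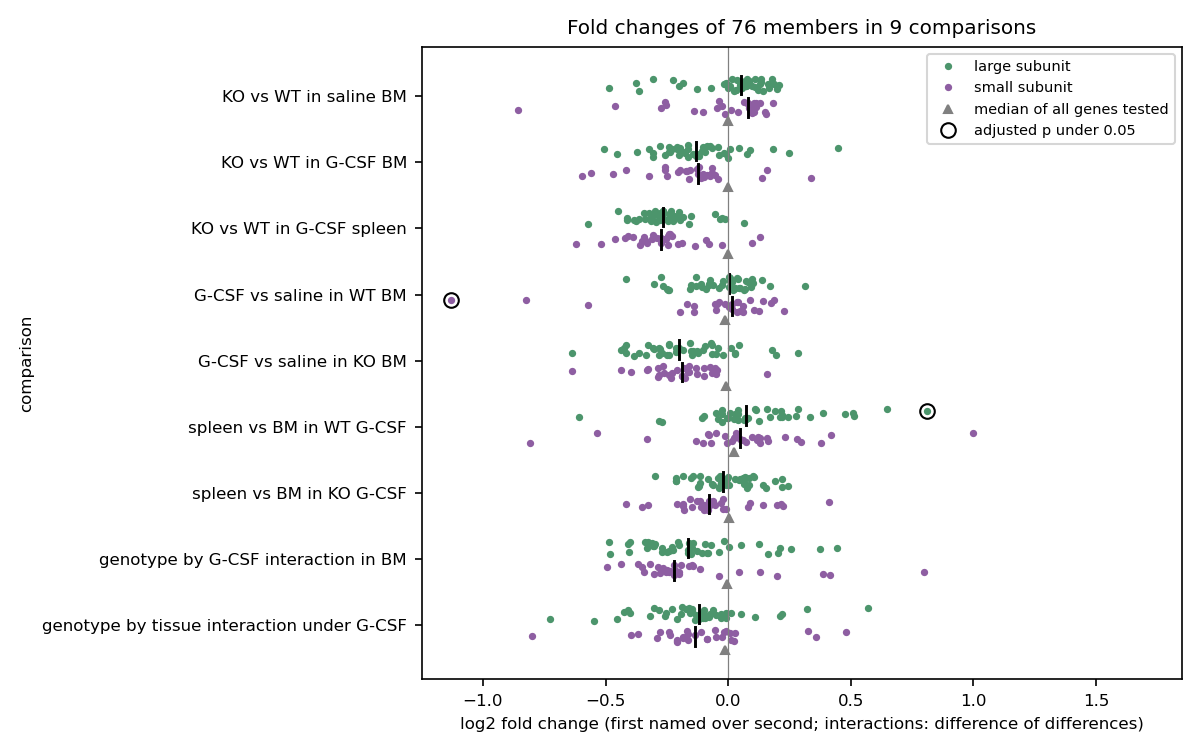
Log2 fold changes of 76 members (points) in 9 comparisons (y axis), large and small subunit in separate rows. Black bars mark the medians of each subunit, grey triangles the median of all genes tested, and circles the members past an adjusted p of 0.05, Rps13 and Rpl5. In KO against WT spleen the points lie left of 0 in 73 of 76 members.

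Large and small subunit genes had similar medians. In that order, their median log2 fold changes were -0.13 and -0.12 for KO over WT in G-CSF BM, 0.053 and 0.082 in saline BM, 0.0043 and 0.016 for G-CSF over saline in WT BM, and -0.20 and -0.19 in KO BM. For spleen over BM they were 0.072 and 0.050 in WT and -0.022 and -0.080 in KO. Per library, the mean of the centred large subunit genes minus that of the small subunit genes was 0.11, -0.0015, 0.0030 and 0.085 in KO spleen and 0.083, 0.070, -0.0052 and 0.022 in WT spleen. It averaged -0.0012 ± 0.058 in KO G-CSF BM (SD, n = 4), -0.027 ± 0.019 in WT G-CSF BM (n = 3), -0.023 ± 0.018 in KO saline BM (n = 3) and -0.052 ± 0.045 in WT saline BM (n = 4). The KO and WT ranges overlapped in each tissue and treatment. The 7 saline BM libraries were all below 0, and so were the 3 WT G-CSF BM libraries (-0.028, -0.0082 and -0.046). Here 0 is only the mean over the 22 libraries.

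Members with roles beyond the ribosome did not pass the test for KO over WT in spleen. Rpsa, which also serves as a laminin receptor, had 3.36 ± 0.09 log2 CPM in KO spleen and 3.57 ± 0.16 in WT spleen (SD, n = 4 each). Rps27a, made as a fusion with ubiquitin, had 3.99 ± 0.12 in KO spleen and 4.28 ± 0.16 in WT spleen. Rps6 had 1.07 ± 0.28 in KO spleen and 1.09 ± 0.38 in WT spleen. Among the paralog pairs of which both genes were listed were Rpl36a with Rpl36al, and Rps27 with Rps27l. Rpl36al, which falls outside the name rule, rose with G-CSF in WT BM (0.48 ± 0.13, limma adjusted p = 0.0191), with a mean of 5.30 ± 0.01 log2 CPM after G-CSF (n = 3) and 4.83 ± 0.14 after saline (n = 4). Rpl36a had -0.27 in the same comparison, and with 14.5% of its words its own its reads cannot be fully separated from copies.

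Ribosomal protein genes and relatives that the name rule misses were looked at beside them. Apart from Rpl36al, which passed in WT BM as given above, 0 of 7 such genes, among them Fau, Rps3a1 and the scaffold Rack1, passed in any of the 9 comparisons by limma, and all 7 were negative for KO over WT in spleen (median -0.35). Rack1 had 10.23 ± 0.13 log2 CPM in KO spleen and 10.46 ± 0.06 in WT spleen (log2 fold change -0.22 ± 0.10, limma adjusted p = 0.398).

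Genes that build ribosomes were compared in the same fit. Of 44 ribosome biogenesis genes, 10 rose and 0 fell with G-CSF in WT BM (median 0.22), beside 5.62% of all genes in each direction, including Ddx21, a helicase of ribosomal RNA processing (0.53 ± 0.11, limma adjusted p = 0.00283), and Bop1 and Pes1, partners in large subunit assembly (0.71 ± 0.16, adjusted p = 0.00531, and 0.69 ± 0.17, adjusted p = 0.00823). In WT spleen over WT BM, 8 fell and 1 rose (median 0.0058), beside 6.82% and 6.92% of all genes, with Ddx21 at -0.62 ± 0.11 (adjusted p = 0.00150), Tcof1 at -0.86 ± 0.16 (adjusted p = 0.00221) and Sbds, a late assembly factor, at 0.49 ± 0.11 (adjusted p = 0.00467). In KO BM with G-CSF, Noc2l, a factor of large subunit export, fell (-0.61 ± 0.17, adjusted p = 0.0270) and 0 rose, beside 4.3% and 5.57% of all genes. The median in KO BM was still positive, at 0.12, with 28 of 44 genes positive. When the KO response was set against the WT response, 0 of 44 passed by limma (median difference -0.17, with 36 negative). These responses are thus not shown to differ between KO and WT. For KO over WT in spleen 0 passed (median -0.10, with 30 of 44 negative), and Pes1 had the smallest p (-0.65 ± 0.15, adjusted p = 0.135).

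Of 42 translation factors and other TOP genes, 4 rose and 2 fell with G-CSF in WT BM, 1 rose and 3 fell in KO BM, and 0 passed for KO over WT in spleen (median -0.094). Over all genes the shares were 5.62% each way in WT BM and 5.57% higher and 4.3% lower in KO BM, so these counts are near the background. Eif4a2, an RNA helicase of initiation, fell with G-CSF in WT (-0.43 ± 0.08, limma adjusted p = 0.00137) and KO BM (-0.45 ± 0.08, adjusted p = 0.000984). Of 25 genes of mTORC1, Myc and TOP control, 2 were higher and 2 lower in WT spleen than in WT BM, beside 6.92% and 6.82% of all genes. In KO 0 were higher and 2 lower, beside 0.95% and 0.317%. Among the lower ones was Myc, a transcription factor that drives ribosome production, in WT (-1.10 ± 0.16, limma adjusted p = 0.000309) and KO (-0.75 ± 0.15, adjusted p = 0.0110). For KO over WT, 0 of these 25 passed in any tissue or treatment, with a median of 0.079 in spleen. Of 9 chaperones and importers of ribosomal proteins, 0 passed in any comparison, and all 9 were negative for KO over WT in spleen (median -0.16). These comparisons share groups, so values are given side by side.

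The 28 members with CTTTC near their start had a median log2 fold change of -0.28 for KO over WT in spleen and the 29 other members with a RefSeq start a median of -0.26. For G-CSF over saline these medians were -0.21 and -0.16 in KO BM and 0.013 and -0.036 in WT BM. Members with at least 50% unique words had a median of -0.28 for KO over WT in spleen, negative in 27 of 27, and the other 49 had a median of -0.26, negative in 46.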

How the data were processed

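RNA of sorted HSCs was extracted with a NucleoSpin RNA XS kit and amplified with a SMARTer Ultra Low kit, per the labels' protocols. Per the submitters' processing notes, the tools were bcl2fastq, the aligner STAR (2.5.1a), the counter featureCounts of Subread (1.4.6-p5), the quantifier Salmon (0.8.2), and limma and edgeR, with build mm10, and which of them made the counts is not given in the sources used here. The authors deposited log2 CPM values per library, and beside them log2 fold changes with bounds, p-values with adjusted p-values, and signed linear fold changes, a score not used here, for 4 comparisons. Of 13645 lines, 51 repeated an identifier with identical values and were dropped. The log2 values gave whole reads within 0.05 in every library, taken as log2 of reads plus 0.5 over an effective library size. Genes above 1 CPM in at least 3 libraries (13586, all 76 members included) entered 1 limma model of 6 group means (R 4.3.3, limma 3.58.1, statmod 1.5.0) leaving 16 residual degrees of freedom, with a trended prior variance. Members were read from that fit, at a Benjamini-Hochberg adjusted p of 0.05 over all genes tested. Read numbers cover counting error only. Fold changes are log2 differences with standard errors.

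Members, gene lists and tests were chosen with earlier results of these data known, and lists carry no test of their own. Named members were those past the threshold (up to 8 a direction, otherwise the 3 of smallest p), the 5 highest, 5 lowest and 5 most variable, stalk genes, paralog pairs, Rpsa, Rps27a, Rps6, and Diamond-Blackfan or MDM2 members. Some genes that met these rules are not reported here. From other lists, at most 4 genes of smallest p were named. Lengths and unique 50-base words came from GENCODE M21 transcripts (shortest principal transcript, all annotated genes, either strand), and promoter sequences from RefSeq (GRCm38.p6). Alternatives were scalings of reads, voom, sample weights, no variance trend, compared groups alone, no filter, length and GC trends removed, a replicate block and leaving out each library. The model was tested on simulated reads. Tables and figures used Python 3.11.15, pandas 2.3.3, NumPy 2.4.6, SciPy 1.17.1 and matplotlib 3.10.9.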

Additional observations from a re-analysis of the deposited data

Results flagged for a closer look

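In 4 cases 1 library stood apart from the other 3 of its group by a gap large for the group's range, among 152 combinations of a group of 4 libraries with a named member or a member summary. Chance sets about 1 in 20 groups apart in this way. Rplp0 lay at 10.03 log2 CPM in KO G-CSF spleen replicate 4 (others 10.28 to 10.29). Rps2 lay at 5.95 in KO G-CSF BM replicate 3 (others 4.47 to 4.72), and Rpl6 at 7.16 in KO G-CSF BM replicate 4 (others 6.99 to 7.01). Rps15 lay at 7.57 in WT saline BM replicate 2 (others 7.83 to 7.86). No interaction of genotype with G-CSF or tissue passed the test in any member.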

How the results depend on the processing

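Over all alternatives, 378 of 410 values of the counts of members called, the members' medians and the subunit difference stayed within 1.5 times the count or within the spread between libraries. For the medians this spread was 0.11, wider than several of the medians, so a change of sign could lie within it. Many counts were 0 in both settings, and the refits share libraries. The tally is therefore a description and does not measure how firm the results are. For KO over WT in spleen, sample weights called 9 members, beside 0.751% of all genes as lower and 1.52% as higher. Removal of length and GC trends gave a median of -0.12. The cause of each change was not tested. For G-CSF in WT BM, 0 members were called with voom, with the compared groups alone, with the replicate block and among members with at least 50% unique words, an alternative added after seeing the data. Over all 13586 genes tested, 823 rose and 769 fell with voom, 664 and 647 with the compared groups alone, and 720 and 720 with the block. For G-CSF in KO BM, 3 were called with reads scaled to the total, to genes other than members, or with length and GC trends removed. For spleen over BM in WT, 8 members were called with sample weights, 3 without a variance trend and 5 with the compared groups alone. There were 5 with length and GC trends removed and 4 with the replicate block. The subset with at least 50% unique words held 0 calls, again fixed beforehand, since Rpl5 (6.16%) lies outside it. Over all 13586 genes tested, 1454 rose and 1403 fell with sample weights, and 794 and 731 without a variance trend. With the compared groups alone 973 rose and 1143 fell, and with the replicate block 562 and 774. With length and GC trends removed 868 rose and 772 fell, and the members' median was -0.063. The genotype by tissue median was then 0.020. Leaving out 1 library gave 0 to 1 calls for KO over WT in G-CSF BM, 0 to 1 and 0 to 4 for G-CSF in WT and KO BM, and 0 to 3 for spleen over BM in WT. Among named members, the fold change of Rps23 for KO over WT in spleen ran between -0.042 (without KO replicate 2) and 0.25, and that of Rpl13 between -0.078 (without WT replicate 2) and 0.23, with -0.056 without KO replicate 2, when 1 library was left out. Correlations of deviations between libraries of the same number ran between -0.063 and 0.15. In no pair of groups did all exceed 0.1, so the number was not used as a pairing. In BM of KO mice, though, each of the 3 shared numbers had a higher correlation than any other pairing of that library. These were 0.076, 0.051 and 0.14, against at most 0.016 with other numbers. For spleen against BM after G-CSF, same-number values were 0.039, 0.094 and 0.044 in WT and 0.15, -0.011, 0.042 and 0.068 in KO. With other numbers they were at most -0.0025, -0.019 and 0.045 in WT and 0.014, 0.083, 0.0098 and 0.078 in KO. The replicate block changed no call of KO over WT. Low members with few reads limit what can be detected.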
